A study of Homo sapiens with 18 samples.

Results

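Interferon-stimulated genes are transcripts that cells make in response to interferons, and 48 of them, the chemokine gene CXCL10 included, are described here in human fibroblasts made senescent by oncogenic RAS. They were picked by symbol, with earlier results of these data known. All 48 had a row among the 28266 rows of the deposited count table. Of these, 46 passed the filter on low counts and were among the 14341 genes tested, whereas OAS2 and RSAD2 were too low to be tested.

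The cells were IMR90 ER:RAS, human lung fibroblasts that carry RAS fused to the oestrogen receptor, so that 4-hydroxytamoxifen (4OHT) switches the oncogene on. Senescent cells had received 100 nM 4OHT and control cells DMSO in its place, both for 7 days, and the inhibitors or DMSO were then given for 3 days until collection on day 10. IMP1088 at 300 nM and DDD86481 at 1.5 µM are inhibitors of the N-myristoyltransferases, the enzymes that attach the fatty acid myristate to proteins. Poly(A) RNA was sequenced from 6 groups of 3 libraries: control cells with DMSO, IMP1088 or DDD86481, and senescent cells with DMSO, IMP1088 or DDD86481. Every group carried the ER:RAS construct, the control cells included. The labels did not say that replicates came from separate cultures, whereas a legend in the study's supplement describes its n as independent experiments. P-values measure the spread between these libraries.

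Interferons bind receptors on the cell surface and activate Janus kinases, which phosphorylate transcription factors such as STAT2. With IRF9, STAT2 is part of a complex that binds the interferon-stimulated response element (ISRE), whereas the response to interferon gamma acts through the gamma-activated site (GAS). The products of the induced genes sense viral RNA, block viral entry and translation, present antigen, or feed back on the pathway, and CXCL10 and CXCL11 attract T cells and natural killer cells through the receptor CXCR3.

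The 250 bases before the transcription start were read from RefSeq on GRCh38.p14 for 39 of the 48 genes. The windows were searched on both strands for the ISRE (GAAA, then 2 bases of any kind, then GAAA), the GAS (TTCNNNGAA) and the NF-kappaB site. An ISRE match lay in 23 of the 39 windows (59%), against 3.07% of the windows of all 27305 genes in the same table. GAS matches lay in 11 (28.2%) against 6.78%, and NF-kappaB matches in 11 (28.2%) against 9.57%. Matching letters are a description and not a site of binding. No window was read for IRF7, IFIT2, IFITM2, OAS2, OASL, MX2, USP18, GBP2 or TRIM22. The windows of 5 genes are shown because their transcripts took different courses, described further on: CXCL10 and CXCL11 were higher in senescent cells and lower with either inhibitor, IFIT1 was lower in senescent cells and rose with IMP1088, GBP1 was lower in senescent cells and lower again with either inhibitor, and ISG20 was higher in senescent cells and higher again with either inhibitor. Letters are in lower case, and capitals mark the motif matches.
CXCL10, chr4:76023498-76023747, minus strand: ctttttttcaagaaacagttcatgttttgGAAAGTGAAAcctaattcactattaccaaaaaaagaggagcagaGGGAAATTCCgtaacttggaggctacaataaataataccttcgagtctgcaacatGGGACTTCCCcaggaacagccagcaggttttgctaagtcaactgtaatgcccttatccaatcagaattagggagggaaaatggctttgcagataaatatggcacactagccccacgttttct
CXCL11, chr4:76036071-76036320, minus strand: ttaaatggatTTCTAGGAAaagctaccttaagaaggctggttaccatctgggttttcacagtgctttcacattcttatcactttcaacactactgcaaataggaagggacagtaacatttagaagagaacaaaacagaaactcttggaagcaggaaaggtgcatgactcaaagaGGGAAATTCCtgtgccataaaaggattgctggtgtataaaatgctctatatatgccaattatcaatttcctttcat
IFIT1, chr10:89392373-89392622, plus strand: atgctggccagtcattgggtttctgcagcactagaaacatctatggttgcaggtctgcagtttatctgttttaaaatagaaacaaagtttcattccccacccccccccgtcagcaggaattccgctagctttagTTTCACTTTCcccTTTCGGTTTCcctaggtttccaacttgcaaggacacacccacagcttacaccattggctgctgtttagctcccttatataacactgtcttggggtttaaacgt
GBP1, chr1:89065209-89065458, minus strand: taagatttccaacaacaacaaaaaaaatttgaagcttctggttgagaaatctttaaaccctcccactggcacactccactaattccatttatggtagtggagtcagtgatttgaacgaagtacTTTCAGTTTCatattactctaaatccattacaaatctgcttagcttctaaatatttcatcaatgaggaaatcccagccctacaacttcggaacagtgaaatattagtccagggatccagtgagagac
ISG20, chr15:88638766-88639015, plus strand: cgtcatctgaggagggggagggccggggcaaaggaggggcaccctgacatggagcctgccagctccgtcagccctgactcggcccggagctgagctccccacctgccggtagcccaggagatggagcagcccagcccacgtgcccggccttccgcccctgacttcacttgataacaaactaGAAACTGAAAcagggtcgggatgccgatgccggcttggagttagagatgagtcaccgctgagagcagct

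In the CXCL10 window the ISRE match began 221 bases upstream of the start and the NF-kappaB matches 177 and 122 bases upstream. CXCL11 had a GAS match at 240 bases and an NF-kappaB match at 76 bases, and no ISRE match in these letters. IFIT1 had ISRE matches at 116 and 103 bases, GBP1 at 127 bases and ISG20 at 69 bases. Of the genes higher in senescent cells 6 had a window, of which 4 held an ISRE and 3 an NF-kappaB match. Of the genes lower in senescent cells 25 had a window, of which 16 held an ISRE and 7 an NF-kappaB match.

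Libraries held between 16143716 and 23189950 counts. The summed level of 12 fibroblast markers, such as COL1A1 and VIM, lay between 20100 and 46900 CPM (counts divided by the effective library size and scaled alike in all libraries) in every library, although 9 of the 12 were lower in senescent than in control cells with DMSO. The summed level of 8 leukocyte markers stayed under 1.80 CPM, with CD3E at 0 in every library. Of 6 epithelial markers, 4 were at 0 throughout. The summed level of 5 endothelial markers was 1.21 to 1.89 CPM in control cells with DMSO and 24.8 to 34.1 CPM in senescent cells with DMSO, and 13.5 to 16.4 and 11.8 to 20.9 CPM in senescent cells with IMP1088 and DDD86481. In senescent cells with DMSO, CLDN5 held 333, 234 and 427 counts, against 100, 78 and 117 for VWF, the next highest. PECAM1 held 47, 50 and 42 counts there, CDH5 25, 33 and 31, and KDR 2, 4 and 3. Control cells with DMSO held 4, 1 and 2 counts of CLDN5, 41, 20 and 18 of VWF and 2, 5 and 7 of PECAM1. They held 0, 1 and 0 counts of CDH5 and 0, 3 and 0 of KDR. The endothelial sum was higher in senescent cells, as CXCL10 was, and its part in the results was not tested. In bulk RNA, fewer cells of a type and less RNA per cell cannot be told apart. Control DMSO replicate 3 stood apart from the other libraries of its group, with a chi-square per gene of 98.8 and 50 against them, where the other 16 pairs of replicates gave 4.89 to 25.5. Control IMP1088 replicate 1 held the highest level of its group for 36 of the 48 genes, and for 16 of them it was over 1.5 times both other libraries. For the 46 genes tested, results that rest on either library are given with and without it, and the other genes named were not refitted without it.

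The first comparison asks how the genes differ between senescent and control cells. With DMSO, 32 of the 46 genes were lower in senescent cells, where 36.0% of all genes tested were called lower, and 7 were higher, where 32.5% of all genes were called higher. The calls are those of edgeR's quasi-likelihood test at an adjusted p under 0.05. The median log2 fold change of the 46 was -0.98, against -0.05 over all genes tested. The 7 that were higher were CXCL10, CXCL11, OASL, TAP1, CMPK2, ISG20 and LGALS3BP. Without control DMSO replicate 3 the counts were 33 lower and 9 higher.

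The remaining comparisons ask what each inhibitor did in each state. In senescent cells IMP1088 lowered 17 of the 46 genes (23.9% of all genes were called lower) and raised 9 (20.6% of all genes called higher), with a median of -0.29 against -0.04. DDD86481 lowered 21 (23.1% of all genes) and raised 5 (20.1%), with a median of -0.50 against -0.04. The higher counts in senescent cells thus lay near or under the share of all genes. In control cells IMP1088 lowered 9 (17.4% of all genes) and raised 4 (16.3%), and DDD86481 lowered 7 (18.7%) and raised 2 (17.8%), and with upper quartile factors DDD86481 lowered 13. The fit of only the groups compared left 5 lower with IMP1088. Of the 9 lower with IMP1088 in control cells, 4 were left without control IMP1088 replicate 2, and of the 4 higher, 2 were left without control IMP1088 replicate 1. The interaction, which is the senescent effect less the control effect, was above 0 for 3 genes with IMP1088 (12.1% of all genes) and 4 with DDD86481 (14.4%), and below 0 for 4 (14.2%) and 9 (15.9%). The interaction counts moved with single libraries. With IMP1088 they became 5 above 0 without control DMSO replicate 1 or without control IMP1088 replicate 1, and 8 below 0 without control DMSO replicate 1. With DDD86481 they became 2 above 0 without control DMSO replicate 3 or without senescent DMSO replicate 2, 1 without senescent DDD86481 replicate 1, and 5 below 0 without senescent DMSO replicate 2. Both inhibitors were compared with the same DMSO libraries and at different doses, so their values stand side by side and were not tested against each other.

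**Figure D1:**
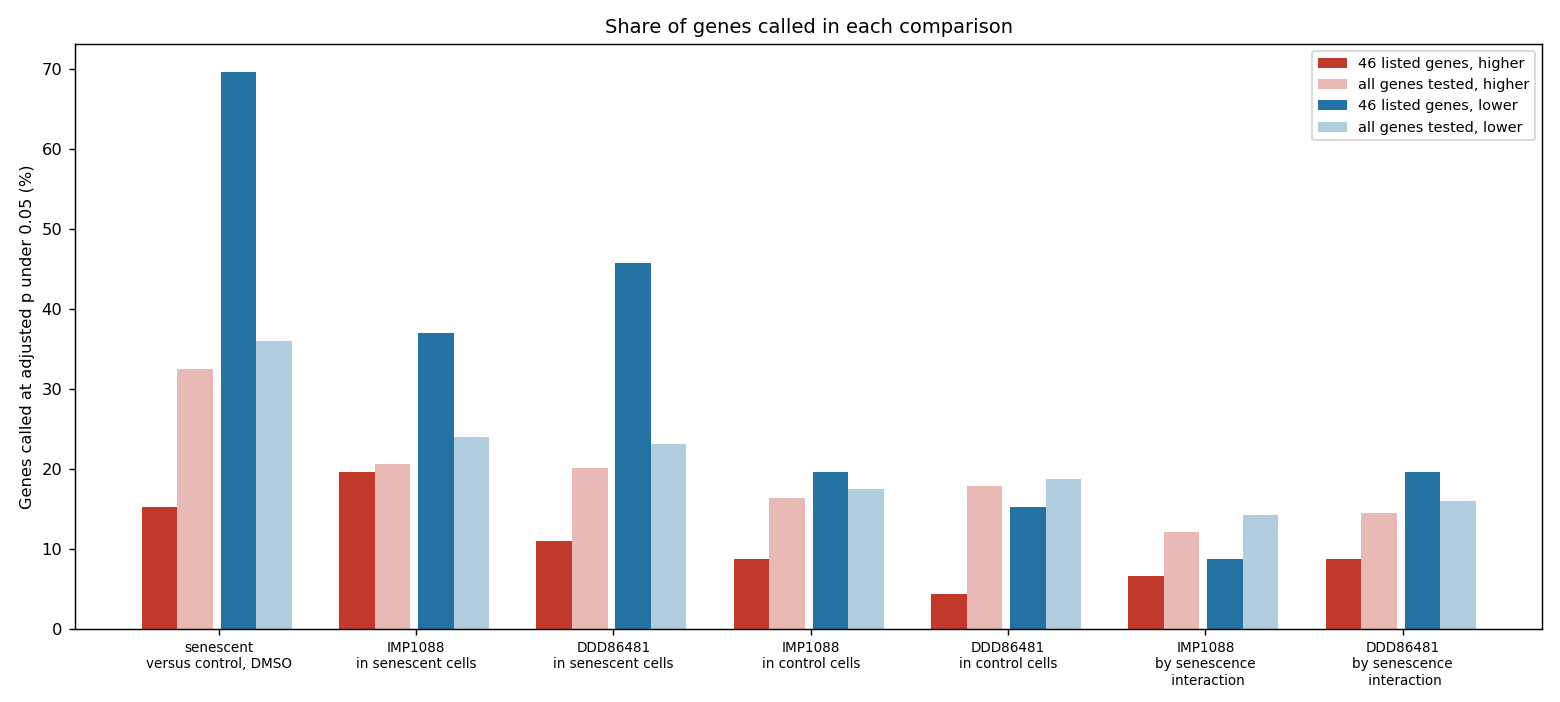
Share of genes called at an adjusted p under 0.05 in each of 7 comparisons (vertical axis, percent, from 0), for the 46 interferon-stimulated genes tested (dark bars) and for all 14341 genes tested (pale bars), higher in red and lower in blue. The bar for genes lower in senescent cells with DMSO reaches 69.6%, against 36.0% of all genes, whereas the bars for control cells and interactions lie between 4.35% and 19.6%.

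CXCL10 was the clearest case among the chemokines. Its level was 1.73, 1.89 and 2.69 CPM in control cells with DMSO and 24.8, 33.8 and 30.3 CPM in senescent cells with DMSO. With IMP1088 the senescent libraries held 0.368, 0.950 and 1.29 CPM, and with DDD86481 0.819, 0.993 and 0.859 CPM. The senescent libraries with DMSO lay above every other library, and those with either inhibitor lay below all 3 control libraries with DMSO. The log2 fold change was 3.83 ± 0.26 (SE) in senescent against control cells (adjusted p = 5.56e-11), -5.09 ± 0.30 with IMP1088 in senescent cells (adjusted p = 2.07e-10) and -5.04 ± 0.30 with DDD86481 (adjusted p = 2.25e-10). In control cells CXCL10 was 1.10, 0.757 and 1.65 CPM with IMP1088 and 2.30, 0.952 and 1.64 CPM with DDD86481. The differences from DMSO there were -0.84 ± 0.33 (adjusted p = 0.0555) and -0.34 ± 0.31 (adjusted p = 0.412), neither of them called. The first passed with upper quartile factors (-0.89), without the filter on low counts (-0.84) and with DESeq2 (-0.84). With the replicate number as a block it was -0.85 with an adjusted p of 0.0485, and it also passed without control DMSO replicate 1 (-0.95, adjusted p = 0.0345) or control IMP1088 replicate 3 (-1.16, adjusted p = 0.0268). The interaction was -4.26 ± 0.47 for IMP1088 (adjusted p = 3.51e-06) and -4.70 ± 0.45 for DDD86481 (adjusted p = 4.67e-07).

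CXCL11, a ligand of the same receptor, was also highest in senescent cells with DMSO. It was 0.121, 0.322 and 0.149 CPM in control and 1.85, 2.99 and 1.98 CPM in senescent cells with DMSO. In senescent cells it was 0.0526, 0.280 and 0.112 CPM with IMP1088 and 0, 0 and 0.123 CPM with DDD86481. No senescent library with an inhibitor reached any of the senescent libraries with DMSO. Its fitted log2 fold change was 3.46 ± 0.48 in senescent cells (adjusted p = 2.11e-06) and -3.90 ± 0.54 with IMP1088 (adjusted p = 6.85e-06). With DDD86481 the change was called (adjusted p = 1.37e-06) on 2 counts against 114, a ratio of 60.7 with a 95% counting interval of 16.4 to 508. In control cells with an inhibitor it was at most 0.201 CPM, and the changes with IMP1088 (-1.26 ± 0.85, adjusted p = 0.263) and DDD86481 (2 counts against 14, adjusted p = 0.0789) did not pass. Nor did the interactions, which were -2.63 ± 1.23 (adjusted p = 0.119) and -3.35 ± 1.95 (adjusted p = 0.200). The size of the DDD86481 interaction is uncertain, because it rests on 2 counts with the inhibitor in each state.

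**Figure D2:**
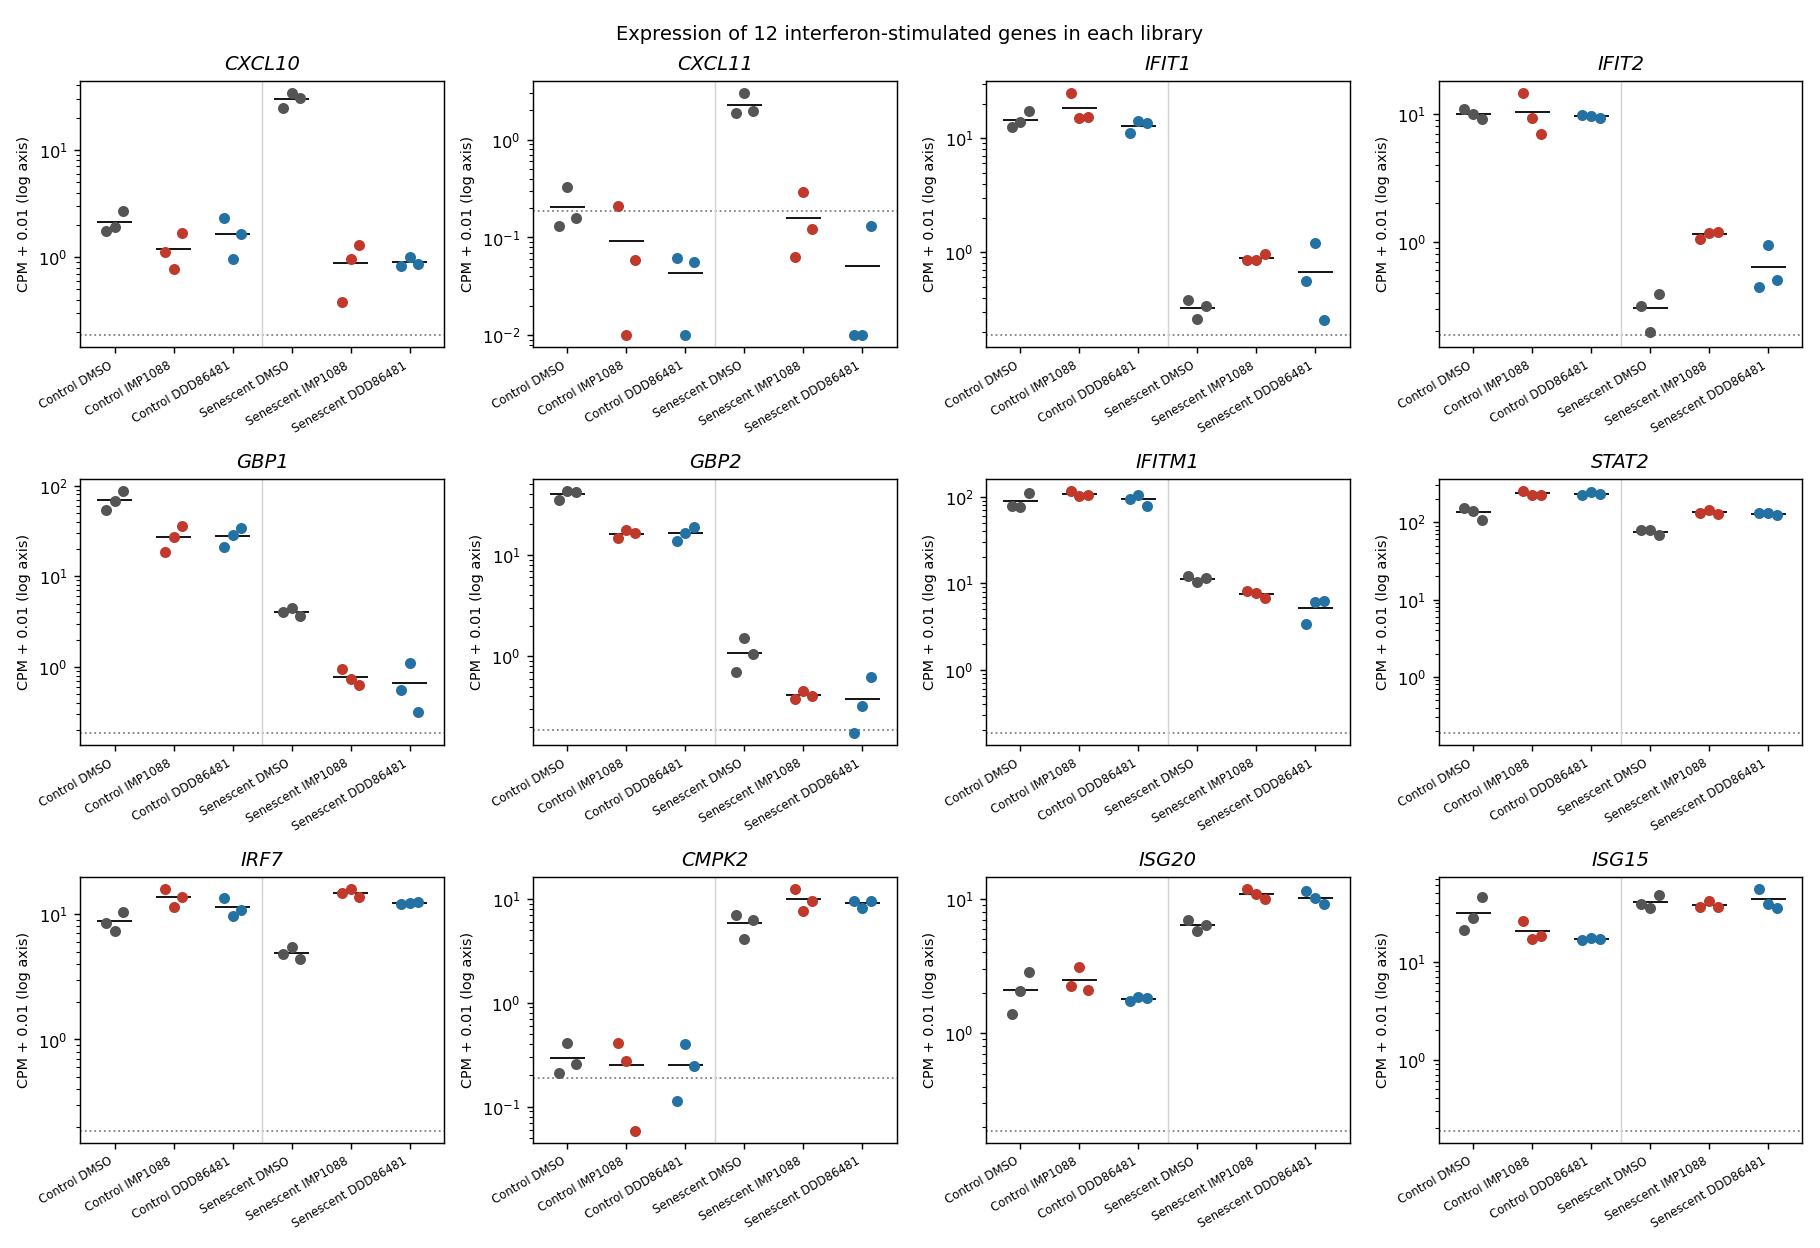
Level of 12 genes in each of the 18 libraries (points), as CPM plus 0.01 on a logarithmic axis, by group (control cells left and senescent cells right of the grey line; DMSO grey, IMP1088 red, DDD86481 blue), with the group mean as a bar and the largest level that 3 counts stand for as a dotted line at 0.187 CPM. CXCL10 and CXCL11 are high in senescent cells with DMSO, while IFIT1, IFIT2, GBP1, GBP2 and IFITM1 are lower in all senescent groups than in control cells with DMSO.

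Of the 4 transcription factors, 3 were lower in senescent cells and 2 rose with both inhibitors in senescent cells. STAT2, the partner of IRF9, was 154, 140 and 108 CPM in control and 80.0, 79.7 and 67.9 CPM in senescent cells with DMSO. It was 254, 226 and 227 CPM with IMP1088 and 222, 246 and 232 CPM with DDD86481 in control cells, and 132, 145 and 129 CPM with IMP1088 and 130, 131 and 124 CPM with DDD86481 in senescent cells. Every library with an inhibitor lay above every DMSO library of its own state. STAT2 fell by 0.82 on the log2 scale in senescent cells (SE 0.11, adjusted p = 1.19e-06). It rose by 0.83 ± 0.11 with IMP1088 (adjusted p = 3.84e-06) and 0.76 ± 0.11 with DDD86481 (adjusted p = 1.18e-05) in senescent cells, and by 0.81 ± 0.11 (adjusted p = 9.26e-06) and 0.80 ± 0.11 (adjusted p = 1.14e-05) in control cells. The interactions were 0.02 ± 0.15 (95% interval -0.30 to 0.33, adjusted p = 0.944) and -0.04 ± 0.15 (-0.36 to 0.28, adjusted p = 0.874).

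IRF7, which amplifies the induction of type I interferons, was 8.42, 7.36 and 10.4 CPM in control and 4.75, 5.48 and 4.40 CPM in senescent cells with DMSO. Senescent cells held 14.8, 15.8 and 13.7 CPM with IMP1088 and 12, 12.3 and 12.4 CPM with DDD86481. These levels lay above all DMSO libraries of both states. The log2 fold change was -0.84 ± 0.17 in senescent cells (adjusted p = 0.000187), 1.60 ± 0.17 with IMP1088 (adjusted p = 2.19e-07) and 1.33 ± 0.17 with DDD86481 (adjusted p = 2.72e-06). In control cells it was 0.64 ± 0.15 with IMP1088 (adjusted p = 0.00336) and 0.37 ± 0.16 with DDD86481 (adjusted p = 0.0651), of which the second passed without control DMSO replicate 3 (0.52, adjusted p = 0.0176) or control DDD86481 replicate 2 (0.48, adjusted p = 0.0339). The interactions were 0.97 ± 0.23 (adjusted p = 0.00417) and 0.95 ± 0.23 (adjusted p = 0.00445), so the rise was larger in senescent cells with either inhibitor.

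IRF1, a factor induced early by interferon gamma, moved the other way from STAT2 and IRF7. It was 42.6, 44 and 51.5 CPM in control and 41.7, 61.2 and 63.2 CPM in senescent cells with DMSO, and these groups overlapped. Levels in senescent cells were 30.7, 43.9 and 37.4 CPM with IMP1088 and 33.6, 39.1 and 34.6 CPM with DDD86481. The change in senescence was 0.27 ± 0.15 (adjusted p = 0.111), and it passed without control DMSO replicate 3 (0.36, adjusted p = 0.0426) or senescent DMSO replicate 1 (0.44, adjusted p = 0.0101). IRF1 fell by 0.57 with IMP1088 (SE 0.15, adjusted p = 0.00386, with overlapping libraries) and by 0.63 with DDD86481 (SE 0.15, adjusted p = 0.00181) in senescent cells. In control cells it fell by 0.44 with IMP1088 (SE 0.15, adjusted p = 0.0278), a call lost without control DMSO replicate 3 or control IMP1088 replicate 1 or 2 (-0.45 to -0.35), and the change with DDD86481 was -0.31 ± 0.15 (adjusted p = 0.107). Neither IRF1 interaction was called (-0.13 ± 0.21, adjusted p = 0.675, and -0.32 ± 0.21, adjusted p = 0.254). IRF9 was 35, 30.5 and 41.4 CPM in control and 18.6, 16.7 and 18.2 CPM in senescent cells with DMSO, a fall of 0.99 (SE 0.15, adjusted p = 7.07e-06) with no overlap. In senescent cells IRF9 was 15.4, 15.8 and 12.6 CPM with IMP1088 (-0.29 ± 0.16, adjusted p = 0.136) and 8.41, 12.5 and 11 CPM with DDD86481 (-0.75 ± 0.16, adjusted p = 0.000768). In control cells the changes of IRF9 were -0.12 ± 0.15 (adjusted p = 0.556) and -0.35 ± 0.15 (adjusted p = 0.0661), and the second passed without control DMSO replicate 2 (-0.44) or control DDD86481 replicate 2 (-0.45). Overlap with other annotated genes covers 22.9% of IRF1 exonic bases on the other strand and 23.9% of those of IRF9 on its own strand. Neither IRF9 interaction passed (-0.17 ± 0.21, adjusted p = 0.579, and -0.40 ± 0.22, adjusted p = 0.173).

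All 3 sensors of viral RNA were lower in senescent cells, and they then parted. DDX58, which encodes RIG-I, was 38.9, 33.8 and 36.4 CPM in control and 31.4, 30.9 and 26.9 CPM in senescent cells with DMSO. In senescent cells it was 13.8, 15.1 and 13.3 CPM with IMP1088 and 12.1, 14.7 and 10.9 CPM with DDD86481, below every DMSO library. The fall with the inhibitors was 1.08 (SE 0.13) and 1.24 (SE 0.13) in senescent cells against 0.52 (SE 0.13) and 0.52 (SE 0.13) in control cells. The difference between states was -0.56 ± 0.18 for IMP1088 (adjusted p = 0.0281) and -0.71 ± 0.18 for DDD86481 (adjusted p = 0.00665). The IMP1088 interaction was lost without control DMSO replicate 2, control IMP1088 replicate 1, senescent DMSO replicate 1 or 2, or senescent IMP1088 replicate 1 or 3 (-0.55 to -0.38), and with upper quartile factors (-0.51). The small fall of DDX58 in senescence, 0.29 (SE 0.13, adjusted p = 0.0455), was lost with RLE size factors, without the filter on low counts and with DESeq2 (-0.26 in each), in the fit of only the groups compared (-0.27) and without any 1 of the 6 libraries except control DMSO replicate 2 (-0.33 to -0.22). With upper quartile factors it was -0.45. Of the exonic bases of DDX58, 43.2% lie within another annotated gene on the same strand.

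IFIH1, which encodes the RNA sensor MDA5, fell in senescence and rose with both inhibitors. It was 6.25, 5.63 and 6.17 CPM in control and 3.83, 2.49 and 2.64 CPM in senescent cells with DMSO (-1.01 ± 0.19), and 7.16, 5.98 and 5.94 CPM with IMP1088 and 4.97, 6.22 and 3.80 CPM with DDD86481 in senescent cells. The rise was 1.09 ± 0.19 with IMP1088 and 0.75 ± 0.19 with DDD86481, the latter with overlapping libraries. In control cells it was 0.53 ± 0.17 (adjusted p = 0.0193) and 0.62 ± 0.17 (adjusted p = 0.00636), with no overlap of libraries. The call in control cells with IMP1088 was lost without control DMSO replicate 2 (0.49) or control IMP1088 replicate 1 (0.43), and neither IFIH1 interaction passed (0.57 ± 0.25, adjusted p = 0.103, and 0.13 ± 0.25, adjusted p = 0.736). The first passed without senescent DMSO replicate 1 (0.78, adjusted p = 0.0385). DDX60, a helicase that promotes RIG-I signalling, had mean levels of 15.0 ± 2.14 CPM (SD, n = 3) in control and 7.92 ± 0.882 CPM in senescent cells with DMSO and was lower again with IMP1088 (-0.50 ± 0.15, lost without senescent DMSO replicate 2 at -0.41) and DDD86481 (-0.60 ± 0.16). In control cells DDX60 changed by 0.04 ± 0.14 and 0.05 ± 0.14. Its interaction passed with DDD86481 (-0.65 ± 0.21, adjusted p = 0.0230) and not with IMP1088 (-0.54 ± 0.21, adjusted p = 0.0568). The DDD86481 value was lost without control DMSO replicate 3, control DDD86481 replicate 2 or 3, senescent DMSO replicate 2 or senescent DDD86481 replicate 3 (-0.57 to -0.53) and in the fit of only the groups compared (-0.61), and the IMP1088 value passed without control DMSO replicate 1 (-0.60).

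All 4 genes of the IFIT family, whose products bind viral RNA and block its translation, were lower in senescent cells, 2 of them by over 5 on the log2 scale. IFIT1 was 12.6, 13.8 and 17.2 CPM in control and 0.370, 0.249 and 0.330 CPM in senescent cells with DMSO, and the groups were far apart. Senescent cells held 0.842, 0.838 and 0.953 CPM with IMP1088 and 0.546, 1.20 and 0.245 CPM with DDD86481. For IFIT1 the log2 fold change was -5.49 ± 0.35 in senescence (adjusted p = 1.70e-11) and 1.45 ± 0.51 with IMP1088 (adjusted p = 0.0271), and with DDD86481 it was 1.09 ± 0.54 (adjusted p = 0.111). The IMP1088 call was lost without senescent DMSO replicate 2 or 3 or senescent IMP1088 replicate 3 (1.31 to 1.48), and the DDD86481 value passed without senescent DDD86481 replicate 3 (1.45). IFIT1 with IMP1088 therefore remained far under its level in control cells. It changed in control cells by 0.34 ± 0.20 with IMP1088 (adjusted p = 0.207), where replicate 1 held 24.8 CPM against 15.0 and 15.3, and by -0.17 ± 0.21 with DDD86481 (adjusted p = 0.551). The interactions were 1.11 ± 0.56 (adjusted p = 0.147) and 1.26 ± 0.58 (adjusted p = 0.104). They passed without control IMP1088 replicate 1 (1.42, adjusted p = 0.0491) and without senescent DDD86481 replicate 3 (1.62, adjusted p = 0.0285).

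IFIT2 took a like course. It was 10.8, 9.90 and 9.06 CPM in control and 0.309, 0.187 and 0.385 CPM in senescent cells with DMSO (-5.03 ± 0.33, adjusted p = 2.56e-11). Levels in senescent cells were 1.05, 1.17 and 1.18 CPM with IMP1088 (1.91 ± 0.44, adjusted p = 0.00150) and 0.437, 0.940 and 0.490 CPM with DDD86481 (1.07 ± 0.50, adjusted p = 0.0893). All 3 IMP1088 libraries lay above the senescent DMSO libraries and under the control libraries. The IFIT2 interaction with IMP1088 was 1.86 ± 0.49 (adjusted p = 0.00867) and that with DDD86481 1.12 ± 0.54 (adjusted p = 0.116). IFIT3 and IFIT5 were less affected, with falls of 0.83 (SE 0.20) and 0.96 (SE 0.14) in senescent cells. IFIT3 did not pass with either inhibitor in senescent cells (0.05 ± 0.21 and -0.20 ± 0.22). IFIT5, in contrast, fell by 0.45 (SE 0.14) with IMP1088 and 0.47 (SE 0.14) with DDD86481. Both IFIT5 calls were lost without senescent DMSO replicate 2 (-0.37 and -0.39), and the second also without senescent DDD86481 replicate 3 (-0.32). The IFIT5 interactions, -0.52 ± 0.20 (adjusted p = 0.0544) and -0.49 ± 0.20 (adjusted p = 0.0650), passed without senescent DMSO replicate 3 (-0.62 and -0.59), and the second also without control DDD86481 replicate 1 (-0.55) or senescent DDD86481 replicate 2 (-0.67). With the replicate number as a block the first passed as well (-0.51, adjusted p = 0.0422). Of the exonic bases of IFIT2, 12.1% lie within another annotated gene on its strand, and genes of a family can share reads, so how the authors' counting split them is uncertain.

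The products of the 3 IFITM genes hinder the entry of viruses at membranes. IFITM3 and IFITM2 held the highest levels of the 48 genes per kilobase of exonic sequence in control cells, with IFITM3 at 160 ± 29.2 and IFITM2 at 116 ± 19.5 CPM per kb (SD, n = 3) with DMSO. IFITM1 was 79.4, 76.8 and 110 CPM in control and 12.2, 10.5 and 11.4 CPM in senescent cells with DMSO. In senescent cells it was 8.10, 7.66 and 6.84 CPM with IMP1088 and 3.39, 6.06 and 6.25 CPM with DDD86481, so both inhibitor groups lay below all DMSO libraries. In control cells the inhibitor libraries (101 to 117 and 79.4 to 105 CPM) overlapped DMSO. The log2 fold change of IFITM1 was -2.96 ± 0.17 in senescence, -0.59 ± 0.18 with IMP1088 and -1.12 ± 0.19 with DDD86481 in senescent cells, and 0.28 ± 0.15 and 0.07 ± 0.15 in control cells. The IMP1088 call in senescent cells was lost without senescent IMP1088 replicate 3 (-0.53), and the value in control cells passed without control DMSO replicate 3 (0.46). Both IFITM1 interactions passed (-0.87 ± 0.24, adjusted p = 0.0114, and -1.20 ± 0.25, adjusted p = 0.00145). IFITM2 fell by 2.88 (SE 0.12) and IFITM3 by 1.86 (SE 0.12) in senescence. With DDD86481 in senescent cells IFITM2 changed by -0.76 ± 0.12 and IFITM3 by -0.52 ± 0.11, both called, and with IMP1088 by -0.26 ± 0.11 (adjusted p = 0.0694) and -0.20 ± 0.11 (adjusted p = 0.155). Neither passed with an inhibitor in control cells, where the values ran from -0.18 to -0.06. The IFITM2 interaction with DDD86481 was -0.57 ± 0.16 (adjusted p = 0.0105). That of IFITM3 was -0.36 ± 0.16 (adjusted p = 0.0936), and it passed without control DMSO replicate 3 (-0.52, adjusted p = 0.00493). These 3 genes are close copies whose reads may have been split, and 21.1% of IFITM1 exonic bases on its own strand and 16.3% of those of IFITM3 on the other strand overlap other annotations. BST2, which encodes tetherin, a protein that holds budding virus at the cell surface, was 1.25, 1.65 and 2.94 CPM in control and 0.556, 0.124 and 0.110 CPM in senescent cells with DMSO (-2.86 ± 0.59, adjusted p = 0.000249). With the inhibitors the BST2 libraries overlapped DMSO in both states.

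The OAS family includes oligoadenylate synthetases, which activate the RNA-cutting enzyme RNase L. Its genes OAS1, OAS2 and OASL were low in these cells. OAS1 was 0.564, 0.402 and 0.547 CPM in control and 0.0617, 0.0623 and 0.110 CPM in senescent cells with DMSO, the latter from 4 counts in all against 35, a ratio of 6.33 with a 95% counting interval of 2.26 to 24.5 (adjusted p = 0.0150). In senescent cells all 9 libraries were at or under 3 counts, and no fold is given for the inhibitors there. In control cells OAS1 was 1.81, 0.223 and 0.777 CPM with IMP1088 (0.86 ± 0.53, adjusted p = 0.218) and 0.470, 0.280 and 0.608 CPM with DDD86481 (-0.13 ± 0.60, adjusted p = 0.892). The first passed without control IMP1088 replicate 2 (1.35, adjusted p = 0.0320). OAS3 was 15.5, 10.6 and 6.72 CPM in control and 1.73, 1.99 and 1.81 CPM in senescent cells with DMSO (-2.57 ± 0.34, adjusted p = 1.40e-06), and neither inhibitor passed in senescent cells (0.73 ± 0.39, adjusted p = 0.133, and 0.26 ± 0.41, adjusted p = 0.639). Its IMP1088 interaction, 0.79 ± 0.48, passed without control IMP1088 replicate 1 (1.32). OASL went the other way, from 0.0806, 0 and 0 CPM in control to 0.185, 0.124 and 0.604 CPM in senescent cells with DMSO. This rise rests on 16 counts against 2, a ratio of 11.1 (95% counting interval 2.60 to 99.2, adjusted p = 0.00359). Both control counts came from replicate 1, and the call was lost without senescent DMSO replicate 3 (adjusted p = 0.0711). OASL was 0.789, 0.838 and 0.841 CPM with IMP1088 in senescent cells, above all DMSO libraries (1.37 ± 0.50, adjusted p = 0.0326), and 0.546, 0.575 and 0.920 CPM with DDD86481 (1.08 ± 0.52, adjusted p = 0.103). The IMP1088 value was 2.36 without senescent DMSO replicate 3, was lost without any 1 of the other 5 libraries (1.01 to 1.40), and was not called by DESeq2 (1.39, adjusted p = 0.0529). The DDD86481 value passed without senescent DMSO replicate 3 (2.07). OAS2 reached 1.30 CPM in control IMP1088 replicate 1 and was at most 0.448 CPM in each of the other 17 libraries.

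The MX genes encode GTPases that trap viral nucleocapsids. MX1 was 5.04, 3.22 and 2.44 CPM in control and 1.54, 2.24 and 1.92 CPM in senescent cells with DMSO (-0.91 ± 0.37, adjusted p = 0.0345), a call lost without control DMSO replicate 1 (-0.61) or senescent DMSO replicate 1 (-0.79) or 3 (-0.92). Senescent cells held 2.37, 2.52 and 2.75 CPM with IMP1088 (0.42 ± 0.39, adjusted p = 0.414) and 1.64, 1.88 and 1.23 CPM with DDD86481 (-0.26 ± 0.42, adjusted p = 0.652). Control cells held 9.03, 3.65 and 3.16 CPM with IMP1088 (0.55 ± 0.32, adjusted p = 0.204) and 2.35, 4.65 and 3.08 CPM with DDD86481 (-0.10 ± 0.34, adjusted p = 0.842). MX1 thus had 1 high library in the IMP1088 group, and the value there passed without control DMSO replicate 1 (0.89, adjusted p = 0.0464). The MX1 interactions were -0.13 ± 0.51 (adjusted p = 0.874) and -0.15 ± 0.54 (adjusted p = 0.859). MX2 fell by 2.01 (SE 0.51, adjusted p = 0.00169) in senescence, from 0.644 to 1.19 CPM to between 0.123 and 0.373 CPM, and passed in no inhibitor comparison.

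ISG15, the ubiquitin-like protein that is attached to other proteins after interferon, did not follow the majority in senescence. It was 21.0, 27.6 and 45.9 CPM in control and 38.9, 35.5 and 48.3 CPM in senescent cells with DMSO, and the groups overlapped through control DMSO replicate 3. The difference was 0.38 ± 0.22 (adjusted p = 0.127), and without that library it was 0.75 (adjusted p = 0.000965). In control cells ISG15 was 25.9, 16.9 and 18.1 CPM with IMP1088 (-0.63 ± 0.22, adjusted p = 0.0346) and 16.8, 17.4 and 16.9 CPM with DDD86481 (-0.88 ± 0.23, adjusted p = 0.00476). Without control DMSO replicate 3 these were -0.26 (adjusted p = 0.315) and -0.51 (adjusted p = 0.0409), and the IMP1088 call was also lost without control IMP1088 replicate 2 (-0.51) or 3 (-0.54). Levels in senescent cells were 36.3, 41.4 and 36.0 CPM with IMP1088 (-0.11 ± 0.22, adjusted p = 0.714) and 55.5, 38.3 and 35.6 CPM with DDD86481 (0.08 ± 0.22, adjusted p = 0.806). The ISG15 interaction was 0.52 ± 0.31 for IMP1088 (adjusted p = 0.227) and 0.96 ± 0.31 for DDD86481 (adjusted p = 0.0265). The DDD86481 interaction was lost without control DMSO replicate 3 (0.59), senescent DMSO replicate 1 (0.92) or 2 (0.87), or senescent DDD86481 replicate 1 (0.73), and the IMP1088 interaction passed without control DMSO replicate 1 (0.77, adjusted p = 0.0301).

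USP18, which removes ISG15 from proteins and restrains the type I interferon receptor, was 25.1, 21.2 and 19.8 CPM in control and 3.58, 3.55 and 3.35 CPM in senescent cells with DMSO. In senescent cells it was 5.26, 5.48 and 5.21 CPM with IMP1088 and 6.01, 4.28 and 3.80 CPM with DDD86481, all above DMSO. In control cells it was 21.5, 15.9 and 16.5 CPM with IMP1088 and 17.9, 17.1 and 17.3 CPM with DDD86481. USP18 thus stood higher with the inhibitors in senescent cells, and in control cells no DDD86481 library reached the lowest DMSO library. For USP18 the log2 fold change was -2.66 ± 0.16 in senescence, 0.61 ± 0.18 with IMP1088 and 0.43 ± 0.18 with DDD86481 (adjusted p = 0.0580) in senescent cells, and -0.30 ± 0.14 and -0.34 ± 0.14 in control cells, neither called. Of the uncalled values, those with DDD86481 passed without senescent DDD86481 replicate 3 (0.56) in senescent cells and without control DMSO replicate 3 (-0.41) in control cells, and that with IMP1088 in control cells passed without control IMP1088 replicate 1 (-0.44). The interactions were 0.90 ± 0.22 (adjusted p = 0.00629) and 0.77 ± 0.23 (adjusted p = 0.0154), the second lost without senescent DDD86481 replicate 1 (0.55). UBE2L6, the enzyme that conjugates ISG15, changed by -0.18 ± 0.10 in senescence (adjusted p = 0.130) and fell with IMP1088 (by 0.42, SE 0.10) and DDD86481 (by 0.58, SE 0.10) in senescent cells. With upper quartile factors its change in senescence was -0.33 (adjusted p = 0.00808), and without senescent DDD86481 replicate 1 its interaction with DDD86481, -0.32 ± 0.15, passed at -0.45 (adjusted p = 0.0216). HERC5, the ISG15 ligase, was at most 2.02 CPM, and its fall of 1.29 (SE 0.50) in senescence was lost without control DMSO replicate 1 (-1.16) or senescent DMSO replicate 2 (-0.90). HERC6, a relative of HERC5, changed by 0.24 ± 0.20 in senescence and fell by 0.52 (SE 0.21) with IMP1088 and 0.56 (SE 0.21) with DDD86481 in senescent cells. The IMP1088 call of HERC6 was lost without any 1 of the 6 libraries compared (-0.57 to -0.46), and the DDD86481 call without any senescent DMSO replicate or without senescent DDD86481 replicate 2 (-0.61 to -0.41). Its interaction with IMP1088, -0.73 ± 0.29 (adjusted p = 0.0642), passed without control IMP1088 replicate 3 (-0.86).

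PARP9 and DTX3L encode a pair of partner proteins that modify others with ADP-ribose and ubiquitin, and both were lower in senescent cells and lower again with the inhibitors. PARP9 was 38.9, 36.6 and 35.6 CPM in control and 7.04, 4.61 and 6.37 CPM in senescent cells with DMSO, and 4.00, 3.52 and 3.92 CPM with IMP1088 and 2.40, 4.13 and 2.70 CPM with DDD86481. None of the inhibitor libraries reached the lowest senescent DMSO library. The log2 fold change of PARP9 was -2.62 ± 0.17 in senescence, -0.66 ± 0.19 and -0.96 ± 0.20 with the inhibitors in senescent cells, and -0.40 ± 0.15 and -0.45 ± 0.15 in control cells. The PARP9 call with IMP1088 was lost in senescent cells without senescent DMSO replicate 1 (-0.53), and in control cells without control DMSO replicate 1 or 2 or control IMP1088 replicate 2 or 3 (-0.39 to -0.32), and that with DDD86481 in control cells without control DDD86481 replicate 1 (-0.35). The PARP9 interaction with DDD86481, -0.51 ± 0.25, passed without senescent DDD86481 replicate 2 (-0.79). DTX3L fell by 1.47 (SE 0.18) in senescence and by 0.76 (SE 0.19) and 0.96 (SE 0.19) with the inhibitors in senescent cells, and in control cells it changed by -0.08 ± 0.17 and -0.19 ± 0.17. Its interaction passed with DDD86481 (-0.77 ± 0.25, adjusted p = 0.0266) and not with IMP1088 (-0.68 ± 0.25, adjusted p = 0.0523). Single libraries decided both. The DDD86481 value was lost without control DMSO replicate 2, control DDD86481 replicate 2 or 3, senescent DMSO replicate 1 or 2, or senescent DDD86481 replicate 1 (-0.75 to -0.70), and the IMP1088 value passed without control DMSO replicate 1, control IMP1088 replicate 2 or senescent IMP1088 replicate 1 (-0.86 to -0.75) and with the replicate number as a block (-0.69, adjusted p = 0.0300). PARP14 was 74.4, 52.1 and 30.7 CPM in control cells with DMSO, a wide spread, and passed in no comparison. Its change in senescence was -0.49 ± 0.22 (adjusted p = 0.0533), and it passed without control DMSO replicate 3 (-0.76, adjusted p = 0.000415). Without control DMSO replicate 1, PARP14 passed in control cells with IMP1088 (0.49) and DDD86481 (0.55) and in both interactions (-0.88 and -0.95).

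The guanylate-binding proteins, GTPases that attack pathogens inside cells and are strongly induced by interferon gamma, fell in all 5 pairwise comparisons. GBP1 was 53.4, 67.7 and 87.3 CPM with DMSO, 18.4, 26.9 and 36.1 CPM with IMP1088 and 20.9, 28.9 and 33.6 CPM with DDD86481 in control cells. Senescent cells held 4.07, 4.42 and 3.63 CPM with DMSO, 0.947, 0.727 and 0.617 CPM with IMP1088 and 0.546, 1.10 and 0.307 CPM with DDD86481. No inhibitor library reached the DMSO libraries of its own state. For GBP1 the log2 fold change was -4.10 ± 0.26 in senescence (adjusted p = 2.26e-11), -2.38 ± 0.39 with IMP1088 (adjusted p = 4.84e-05) and -2.58 ± 0.40 with DDD86481 (adjusted p = 2.98e-05) in senescent cells, and -1.36 ± 0.22 (adjusted p = 8.72e-05) and -1.32 ± 0.22 (adjusted p = 0.000113) in control cells. The GBP1 interaction was -1.27 ± 0.47 for DDD86481 (adjusted p = 0.0487) and -1.03 ± 0.46 for IMP1088 (adjusted p = 0.103). The first was lost without any of 9 of the 12 libraries (-1.34 to -0.96, all but control DMSO replicate 3, control DDD86481 replicate 1 and senescent DDD86481 replicate 2), and the second passed without control IMP1088 replicate 1 (-1.21, adjusted p = 0.0474). GBP2 fell from 34.8, 42.8 and 41.5 CPM in control to 0.679, 1.49 and 1.04 CPM in senescent cells with DMSO (-5.20 ± 0.22, adjusted p = 2.35e-14). Its falls with IMP1088 and DDD86481 were 1.40 (SE 0.38, adjusted p = 0.00484) and 1.58 (SE 0.39, adjusted p = 0.00255) in senescent cells, and 1.29 (SE 0.16, adjusted p = 3.78e-06) and 1.29 (SE 0.16, adjusted p = 4.30e-06) in control cells. The GBP2 interactions were -0.10 ± 0.37 (95% interval -0.88 to 0.68) and -0.29 ± 0.41 (-1.16 to 0.57).

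TAP1, which moves peptides into the endoplasmic reticulum for antigen presentation, was 49.6, 45.4 and 51.1 CPM in control and 108, 102 and 117 CPM in senescent cells with DMSO. Levels in senescent cells were 75.6, 73.1 and 75.1 CPM with IMP1088 and 74.7, 66.2 and 68.4 CPM with DDD86481, and in control cells 38.1, 33.8 and 39.2 CPM and 38.0, 37.5 and 38.2 CPM. Its groups did not overlap in any of the 5 pairwise comparisons, so TAP1 was higher in senescent cells and lower with the inhibitors in both states. The log2 fold change was 1.16 ± 0.09 in senescence, -0.55 ± 0.09 and -0.64 ± 0.09 in senescent cells, and -0.39 ± 0.09 and -0.36 ± 0.09 in control cells, and neither interaction passed (-0.15 ± 0.12, adjusted p = 0.379, and -0.28 ± 0.12, adjusted p = 0.0850). Of its exonic bases, 14.2% overlap a gene on the other strand.

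Among the other antiviral effectors, CMPK2 and ISG20 were higher in senescent cells and rose further with both inhibitors. CMPK2, a mitochondrial nucleotide kinase, was 0.202, 0.402 and 0.249 CPM in control and 7.04, 4.11 and 6.21 CPM in senescent cells with DMSO, and 12.5, 7.66 and 9.42 CPM with IMP1088 and 9.50, 8.15 and 9.50 CPM with DDD86481. Every senescent library lay above every control library. For CMPK2 the log2 fold change was 4.31 ± 0.36 in senescence (adjusted p = 1.22e-09), 0.77 ± 0.23 with IMP1088 and 0.64 ± 0.24 with DDD86481 in senescent cells. The IMP1088 call was lost without senescent DMSO replicate 2 (0.58) or senescent IMP1088 replicate 1 (0.56), and the DDD86481 call without senescent DMSO replicate 2 or 3 or senescent DDD86481 replicate 1 or 3 (0.45 to 0.70). ISG20, an exonuclease that degrades viral RNA, was 1.37, 2.05 and 2.84 CPM in control and 6.98, 5.79 and 6.37 CPM in senescent cells with DMSO, and 11.9, 10.9 and 9.98 CPM with IMP1088 and 11.4, 10.1 and 9.20 CPM with DDD86481. The changes of ISG20 were 1.63 ± 0.20 in senescence and 0.78 ± 0.18 and 0.68 ± 0.18 with the inhibitors in senescent cells. It changed in control cells by 0.28 ± 0.22 and -0.19 ± 0.23, and the interaction passed with DDD86481 (0.88 ± 0.30, adjusted p = 0.0301) and not with IMP1088 (0.50 ± 0.29, adjusted p = 0.203). The first was lost without control DMSO replicate 3, control DDD86481 replicate 1, senescent DMSO replicate 2 or senescent DDD86481 replicate 1 (0.61 to 0.89), and the second passed without control DMSO replicate 1 (0.76). LGALS3BP, a secreted glycoprotein, held the highest level per kilobase of the 48 genes in senescent cells with DMSO (94.4 ± 3.36 CPM per kb, SD, n = 3), where it was 336, 315 and 319 CPM against 237, 231 and 196 CPM in control cells (0.55 ± 0.09). The inhibitors changed LGALS3BP by -0.19 ± 0.09 and -0.16 ± 0.09 in senescent cells, and the second passed without senescent DDD86481 replicate 1 (-0.26).

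The genes TRIM22, SAMD9, SAMD9L and XAF1 fell with at least 1 inhibitor in senescent cells. TRIM22, a ubiquitin ligase that restricts viral transcription, was 53.2, 53 and 46.8 CPM in control and 27.0, 29.4 and 31.7 CPM in senescent cells with DMSO (-0.80 ± 0.15), and 10.1, 15.4 and 12.9 CPM with IMP1088 (-1.20 ± 0.16) and 10.5, 14.8 and 14.4 CPM with DDD86481 (-1.15 ± 0.15). In control cells it changed by -0.22 ± 0.14 and -0.23 ± 0.14, and both interactions passed (-0.98 ± 0.21, adjusted p = 0.00208, and -0.92 ± 0.21, adjusted p = 0.00316). TRIM22 was therefore lowered more in senescent than in control cells by either inhibitor. SAMD9, an antiviral factor that limits translation, fell by 1.62 (SE 0.21) in senescence and by 0.64 (SE 0.24) and 0.98 (SE 0.24) with the inhibitors in senescent cells. The IMP1088 call of SAMD9 was lost without senescent DMSO replicate 2 or 3 or senescent IMP1088 replicate 1 (-0.68 to -0.45), and in control cells its changes, -0.31 ± 0.19 and -0.44 ± 0.20, passed without control DMSO replicate 3 (-0.52 and -0.64). SAMD9L, its close relative, changed by -0.20 ± 0.22 in senescence and fell by 1.10 (SE 0.24) and 1.15 (SE 0.24) with the inhibitors there. Its control libraries with DMSO, 20.7, 15.3 and 7.71 CPM, spread widely. The SAMD9L fall with IMP1088 in control cells, 0.60 (SE 0.22, adjusted p = 0.0453), was lost without control DMSO replicate 1 or 2 or control IMP1088 replicate 2 or 3 (-0.55 to -0.25), and the change in senescence (-0.49) and that with DDD86481 in control cells (-0.81) passed without control DMSO replicate 3. Both SAMD9L interactions (-0.50 ± 0.33 and -0.64 ± 0.33) passed without control DMSO replicate 1 (-0.80 and -0.94). XAF1, which opposes an inhibitor of apoptosis, was 1.61, 1.37 and 0.879 CPM with DMSO, 0.842, 0.727 and 0.897 CPM with IMP1088 and 0.218, 0.731 and 0.184 CPM with DDD86481 in senescent cells. It fell with DDD86481 (by 1.70, SE 0.42, adjusted p = 0.00242) and was -0.63 ± 0.36 with IMP1088 (adjusted p = 0.166), after a fall of 1.99 (SE 0.28) in senescence. Without senescent DDD86481 replicate 2 the XAF1 value was -2.62. The XAF1 interaction with DDD86481, -1.48 ± 0.48 (adjusted p = 0.0257), was lost without senescent DMSO replicate 1 or 2 or senescent DDD86481 replicate 1 or 3 (-1.43 to -1.18) and was -2.40 without senescent DDD86481 replicate 2. Of the exonic bases of XAF1, 38.3% overlap a gene on the other strand.

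IFI44L was nearly absent from senescent cells with DMSO. It was 1.53, 1.77 and 1.54 CPM in control and 0, 0 and 0.0549 CPM in senescent cells with DMSO, 113 counts against 1, a ratio of 81.7 with a 95% counting interval of 14.4 to 3257 (adjusted p = 4.21e-06). In control cells it rose with IMP1088 (1.15 ± 0.35, adjusted p = 0.0155) to 6.52, 2.45 and 1.89 CPM, and this rise rested on replicate 1, without which it was 0.43 (adjusted p = 0.280). In the fit of only the groups compared, the IFI44L rise had an adjusted p of 0.100. With IMP1088 in senescent cells IFI44L had 10 counts against 1, a ratio of 9.22 with a counting interval of 1.31 to 400 (adjusted p = 0.103). IFI35, a partner of interferon-induced proteins in the cytoplasm, fell by 1.78 (SE 0.19) in senescence, and in control cells by 0.49 (SE 0.17, adjusted p = 0.0329) with IMP1088 and 0.71 (SE 0.17, adjusted p = 0.00318) with DDD86481. The IFI35 call with IMP1088 was lost without control DMSO replicate 2 or 3 or control IMP1088 replicate 2 or 3 (-0.50 to -0.35) and in the fit of only the groups compared (-0.49), and the IFI35 interaction with DDD86481, 0.51 ± 0.27, passed without senescent DDD86481 replicate 3 (0.70). IFI6, IFI44 and EPSTI1 fell in senescence by 1.32 (SE 0.30), 0.82 (SE 0.24) and 1.72 (SE 0.38) and were called in no inhibitor comparison. Of the exonic bases of IFI6, 23.1% lie within another annotated gene on the same strand. The EPSTI1 value with DDD86481 in senescent cells, -0.98 ± 0.53, passed without senescent DDD86481 replicate 2 (-2.30), and that of IFI44 in control cells with DDD86481, -0.58 ± 0.23, passed without control DMSO replicate 1 (-0.69) or control DDD86481 replicate 2 (-0.74). IFI27 did not pass anywhere, at up to 0.796 CPM. RSAD2, which encodes viperin, was not tested and was at most 0.201 CPM in control libraries and between 0.123 and 0.841 CPM in senescent libraries.

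**Figure D3:**
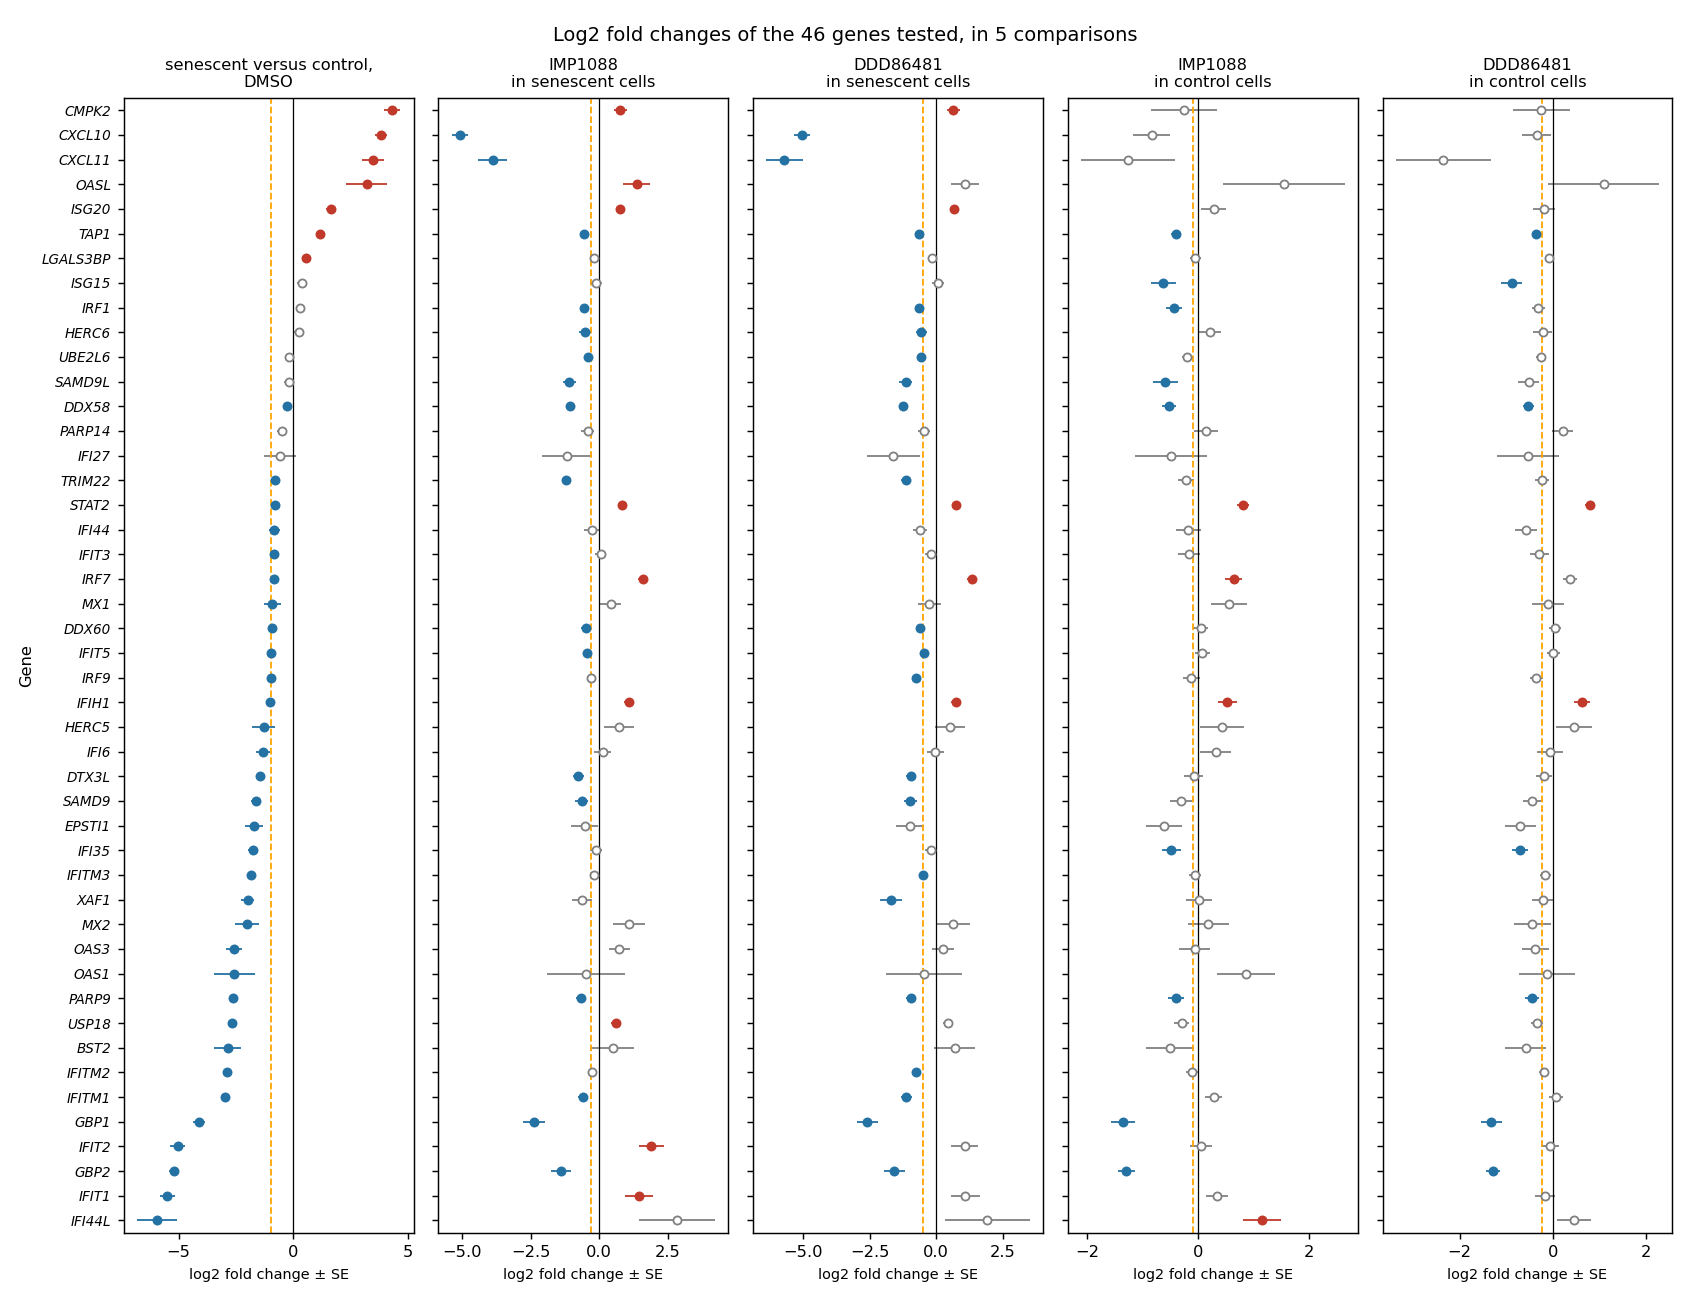
Log2 fold change with its standard error (horizontal axes, scaled for each panel) of the 46 genes tested in the 5 pairwise comparisons, ordered by their change in senescence, with genes called higher in red, lower in blue and others open, and the median of the 46 as a dashed line. The first panel runs from 4.31 for CMPK2 to the fitted value of IFI44L, which rests on 1 count in senescent cells, and CXCL10 and CXCL11 stand apart at the left of both senescent inhibitor panels.

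Genes whose inhibitor effect differed between the states by the interaction test were CXCL10, IRF7, DDX58, IFITM1, USP18 and TRIM22 with both inhibitors, IFIT2 with IMP1088, and DDX60, IFITM2, ISG15, DTX3L, GBP1, ISG20 and XAF1 with DDD86481. IRF7, USP18, IFIT2, ISG15 and ISG20 lay above 0, and the others below.

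**Figure D4:**
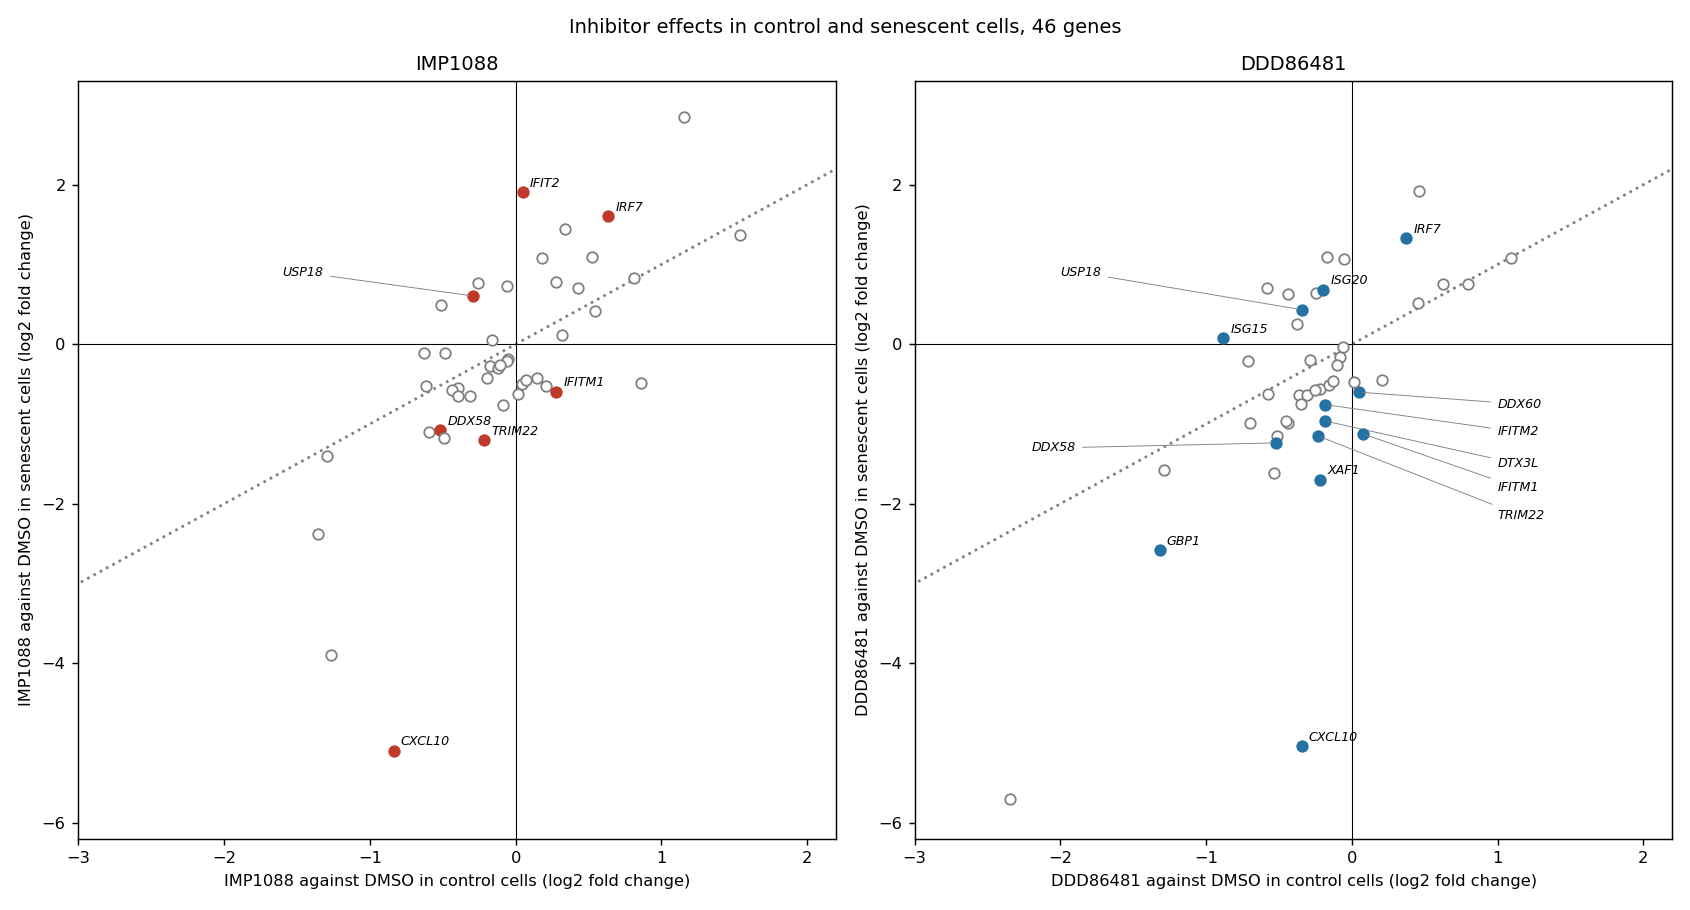
Effect of each inhibitor against DMSO in senescent cells (vertical axis) and in control cells (horizontal axis) as log2 fold changes, 1 point for each of the 46 genes, with equal effects on the dotted line and the genes that passed the interaction test filled and named. CXCL10 lies farthest below the line among the named genes, at -5.09 and -0.84 with IMP1088 and at -5.04 and -0.34 with DDD86481, while IRF7 lies above it in both panels.

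Genes that act upstream of this response were measured as well. Of 8 interferon genes only IFNE passed the filter on low counts, and IFNB1 had no count in any senescent library. IFNE, which encodes interferon epsilon, was 0.171 CPM in control and 0.867 CPM in senescent cells with DMSO on average (2.30, called), 0.348 CPM with IMP1088 (-1.31, called) and 0.721 CPM with DDD86481 (-0.26, not called) in senescent cells. Of 5 receptor genes tested, 4 were called higher and 1 called lower in senescence (32.5% and 36.0% of all genes), the higher ones including IFNAR1 (0.23), IFNAR2 (0.38) and IFNGR1 (0.75). In senescent cells IFNGR2, a chain of the interferon gamma receptor, fell by 0.69 with IMP1088 and 0.74 with DDD86481, and IL10RB, shared with the interferon lambda receptor, by 1.19 and 1.24. IFNGR1, the other chain of the interferon gamma receptor, was 0.31 with IMP1088, called higher, and 0.24 with DDD86481, not called. IFNAR1 was called with neither (-0.15 and -0.18), and IFNAR2 was called lower with DDD86481 only (-0.16 and -0.25). Overlap with another annotated gene on the same strand covers 21.6% of the exonic bases of IL10RB and 14.7% of those of IFNAR2. Of 9 signalling genes tested, 1 was called higher and 5 called lower in senescence, beside the same shares of all genes. JAK1 was not called in senescence (0.06), JAK2 fell (by 0.33) and TYK2 rose (by 0.79). SOCS1, a feedback inhibitor of Janus kinases, fell by 3.12 in senescence and by 1.30 and 1.19 with the inhibitors in senescent cells, where its interactions (-1.29 and -1.04) passed. SOCS3 was not called in senescence (0.35) and fell by 0.84 and 0.73 with the inhibitors in senescent cells. Of 15 sensing and induction genes tested, 2 were called higher and 7 called lower in senescence, again beside 32.5% and 36.0% of all genes, and with each inhibitor in senescent cells 6 were lower and 9 were not called, where 23.9% of all genes were called lower with IMP1088 and 23.1% with DDD86481. The sensing genes STING1 (-0.96 and -0.98) and MAVS (-0.43 and -0.35) fell with IMP1088 and DDD86481 in senescent cells, and TBK1 (-0.03 and -0.07), IRF3 (0.06 and 0.13) and CGAS (0.08 and 0.08) were not called. TLR3, a sensor of double-stranded RNA, had 151 counts in control and 1 in senescent cells with DMSO, a ratio of 109 with a 95% counting interval of 19.3 to 4342.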

How the data were processed

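Poly(A) RNA of 18 libraries in 6 groups of 3 was sequenced, and the counts deposited by the authors were raw, 1 table for all libraries, with no normalization. The submitters' processing notes name hg38, DRAGEN, STAR 2.7.8a and DESeq2 1.32.0, whereas the study's methods name a directional library kit, hg19 and a strand-aware TopHat alignment. The strand setting of the counting itself is not given in the sources used here, so genes that overlap others on the same strand are uncertain, and those on the other strand are if the counting did not use strand. All sample columns of the table were used. Groups came from the sample labels. The 48 genes, the lists and the tests were chosen with earlier results of these data known.

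Genes passing filterByExpr (14341 of 28266 rows, holding 99.962% of the counts) were scaled by TMM and fitted in 1 model of all 6 groups with edgeR 4.0.16 (quasi-likelihood test, R 4.3.3, limma 3.58.1). P-values were adjusted by Benjamini-Hochberg over all genes tested in each comparison, and called under 0.05. Standard errors were the fold change over the square root of F. A prior count of 2 was used for log2 levels. A floor of 3 counts stands for 0.121 to 0.187 CPM. Where every library of 1 group held at most 3 counts and a library of the other group held more, the ratio of summed counts is given with its exact 95% interval. The intervals of these ratios and the floors cover counting error only, whereas the 95% intervals of interactions come from the fitted standard errors. Precision rests on the total counts, 16143716 to 23189950, and on the spread between the libraries of a group.

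Full statistics are given in every comparison for CXCL10, CXCL11, ISG15, IFIT1, MX1, OAS1, STAT2, IRF1, IRF7 and IRF9, except OAS1 where both groups, or a pair of groups in an interaction, were at or under the floor, and for the 6 genes with the largest called change in each comparison, while the others are given by group. The 5 promoters shown were chosen after their values were seen. Alternatives were RLE size factors, upper quartile factors, no filter, a fit of only the groups compared, the replicate number as a block, DESeq2 1.42.0 and leaving out each library. Same-numbered libraries tended to vary alike in control cells with IMP1088 and DMSO (r = 0.394, 0.123 and 0.231 for replicates 1, 2 and 3). In the other pairs of groups r was positive too, from 0.00675 to 0.170. For replicate 2 it was higher in senescent cells with DDD86481 and DMSO (0.170). With no cut-off stated, these values did not settle whether the replicate numbers pair libraries. Calls in all comparisons therefore come from the fit without the block, and results with the block are given as an alternative. Exonic lengths and overlaps came from a GRCh37 annotation and promoter windows from RefSeq on GRCh38.p14, neither used to recount reads. Some genes of the lists are not reported here.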

Additional observations from a re-analysis of the deposited data

Results flagged for a closer look

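The effects below differed between senescent and control cells by the interaction term of edgeR's quasi-likelihood test, given as the senescent log2 fold change less the control one. Among all genes tested, the interaction was called above 0 for 12.1% and below 0 for 14.2% with IMP1088. With DDD86481 these shares were 14.4% and 15.9%. With IMP1088 the differences were -4.26 for CXCL10, 0.97 for IRF7, -0.56 for DDX58, 1.86 for IFIT2, -0.87 for IFITM1, 0.90 for USP18 and -0.98 for TRIM22. With DDD86481 they were -4.70 for CXCL10, 0.95 for IRF7, -0.71 for DDX58, -0.65 for DDX60, -1.20 for IFITM1, -0.57 for IFITM2, 0.96 for ISG15, 0.77 for USP18, -0.77 for DTX3L, -1.27 for GBP1, 0.88 for ISG20, -0.92 for TRIM22 and -1.48 for XAF1. Adjusted p-values ran from 4.67e-07 for CXCL10 to 0.0487 for GBP1, both with DDD86481. The comparisons share their DMSO libraries. Leaving out single libraries ended the calls of DDX58 with IMP1088 and of DDX60, DTX3L, GBP1, ISG15, ISG20, USP18 and XAF1 with DDD86481, with the values given above beside each gene.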

How the results depend on the processing

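No result for the genes tested changed its direction past the threshold under any alternative run. RLE size factors ended 1 call among the 322 gene results and began none. Upper quartile factors ended 2 and began 9, no filter 1 and 14, DESeq2 2 and 9, and the fit of only the groups compared 7 and 9. For DESeq2, 307 other results were unchanged, and those to which it gave no adjusted p-value were left out. The replicate block ended none and began 7: PARP14 in senescence, CXCL10 with IMP1088 and USP18 with DDD86481 in control cells, USP18 with DDD86481 in senescent cells, DTX3L and IFIT5 in the IMP1088 interaction and IFIT5 in the DDD86481 interaction. With the block, the counts were 7 higher and 33 lower in senescence, 9 and 17 with IMP1088 and 6 and 21 with DDD86481 in senescent cells, 4 and 10 and 2 and 8 in control cells, and 3 and 6 and 4 and 10 for the interactions. Upper quartile factors moved the median of all genes in senescence from -0.05 to -0.21 and gave 13 genes lower with DDD86481 in control cells. The count lower with IMP1088 in control cells was 5 in the fit of only the groups compared, and that below 0 in the IMP1088 interaction was 7 with no filter and 8 with DESeq2. Leaving out single libraries gave 6 to 9 higher and 29 to 33 lower in senescence, 6 to 8 and 13 to 16 with IMP1088 and 4 to 6 and 19 to 22 with DDD86481 in senescent cells, 2 to 6 and 4 to 9 with IMP1088 and 2 to 3 and 6 to 10 with DDD86481 in control cells, and 3 to 5 and 3 to 8, and 1 to 6 and 5 to 11, for the interactions. The cause of these changes was not tested. Genes with few counts, such as OAS1, OASL, CXCL11 and IFI44L, were limited by depth.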

Other observations

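Of 15 genes of antigen presentation tested beside TAP1, 6 were higher and 5 lower in senescent than in control cells with DMSO, where 32.5% and 36.0% of all genes were. TAPBP, which encodes tapasin, and TAP2, the partner of TAP1, were higher by 1.12 and 0.92 on the log2 scale, and the immunoproteasome gene PSMB9 fell by 1.90. Of the exonic bases of TAP2, 19.5% lie within another annotated gene on the same strand. In senescent cells 2 of the 15 were higher and 6 lower with either inhibitor, where 20.6% and 23.9% of all genes were with IMP1088 and 20.1% and 23.1% with DDD86481. ERAP2, which trims peptides, fell by 0.78 with IMP1088 and 0.86 with DDD86481, and NLRC5, an activator of the genes of class I molecules, by 0.83 and 1.01. HLA-C was 0.25 with IMP1088, not called, and 0.29 with DDD86481, called. Genes of the HLA family can share reads, which makes their values uncertain.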
